A study of Mus musculus with 6 samples.

Results

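Mpp5 and a set of cell polarity scaffold genes were followed after knockdown of Gch1 in BV2 cells. BV2 is an immortalised line of mouse microglia, the resident macrophages of the brain. The set had 10 listed genes: the MAGUK (membrane-associated guanylate kinase) genes Mpp5, Mpp1, Mpp6, Mpp7 and Dlg1, the adaptor genes Lin7c, Pard3 and Pard6b, the kinase gene Prkci and Scrib. The set was chosen by the FPKM values of Mpp5, which were higher after knockdown in these same libraries, so the difference in Mpp5 is described here without a test. The other genes were included for their family or complex. Of the 10, 9 were measured among 12327 genes in all, and Pard3, the PAR3 scaffold, was not analysed here. All 9 also passed the filter on low values (0.5 FPKM in 3 or more of the 6 libraries).

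The study compared 3 libraries labelled GCH1-KD, from BV2 cells given an adenovirus with a GCH1 hairpin (Ad-shGCH1) 48 hours earlier, with 3 labelled negative control (Ad-NC). The enzyme GCH1, GTP cyclohydrolase I, catalyses the first and rate-limiting step towards the cofactor tetrahydrobiopterin. Cells of both groups came from the same BV2 subline and were grown in high-glucose medium with fetal bovine serum, but the labels leave unclear what the control cells received. Their name, Ad-NC, reads as that of a control adenovirus, yet infection is stated for the knockdown cells alone, and the series text calls the controls wild type. Separate cultures are not mentioned for the 3 libraries of a group, so the spread behind each p-value may be technical.

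Values were read as FPKM, the unit they look like, which is read coverage per length of transcript and per size of library, from ribosomal RNA-depleted total RNA, and levels are therefore compared between genes per length. Gch1 itself was at 3.20, 2.93 and 3.43 FPKM in the knockdown libraries and 6.89, 7.22 and 7.23 FPKM in the control libraries, so every library matched its label. Estimated depth was 6.32 to 7.61 gigabases of aligned sequence in the knockdown libraries and 5.25 to 5.58 gigabases in the control libraries. By this estimate depth differed with the groups, and its part in the results was not tested. Of 10 microglial markers 9 were measured, among them Csf1r, Itgam, Spi1 and Aif1. The markers measured summed to 590.7 to 637.6 FPKM in the knockdown libraries and 636.2 to 645.0 FPKM in the control libraries, and the part of this in the results was not tested. P2ry12, a marker of homeostatic microglia, was not among them, and nor was any of the 9 epithelial markers, which include Epcam and Cdh1. Of 21 markers of neurons, astrocytes, oligodendrocytes, endothelium, fibroblasts and mural cells, 5 were measured (Aldoc, Cnp, Vwf, Flt1 and Acta2), and none of the marker genes passed the test described below. Vwf and Flt1 summed to 26.2 to 28.8 FPKM in the knockdown libraries and 26.4 to 27.4 FPKM in the control libraries. Aldoc was at 24.7 to 26.3 FPKM in the knockdown libraries and 24.8 to 28.6 FPKM in the control libraries. Cnp was at 5.10 to 5.80 and 4.89 to 5.52 FPKM, and Acta2 at 0.39 to 0.65 and 0.49 to 0.52 FPKM, in that order. In bulk RNA, fewer cells of a type and less RNA per cell cannot be told apart.

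Polarity scaffolds are multidomain proteins that hold membrane receptors, kinases and cytoskeletal linkers together at defined sides of a cell. They work in 3 modules, first described in epithelia and in fly and worm embryos. The Crumbs module joins the Crumbs receptor to Mpp5 (also called PALS1) and Patj. The PAR module joins Pard3, Pard6 and atypical protein kinase C. The Scribble module joins Scrib, Dlg and Lgl. In blood-derived and immune cells, parts of the same machinery take part in migration, in synapse formation between cells and in shaping the membrane skeleton.

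Mpp5 encodes the MAGUK scaffold that binds the tail of Crumbs through its PDZ domain and Patj and Lin7 through its paired L27 domains. Mpp5 (ENSMUSG00000021112.9; GRCm38 chromosome 12, 78748907 to 78840714, plus strand) was at 10.1, 9.55 and 9.37 FPKM in the knockdown libraries and 5.58, 6.02 and 5.32 FPKM in the control libraries. The groups did not overlap, and the lowest knockdown library was above the highest control library. Mpp5 averaged 9.68 ± 0.40 FPKM in knockdown cells and 5.64 ± 0.35 FPKM in control cells (SD, n = 3 each), which is 171.6% of control. Its log2 fold change on the scale of log2(FPKM + 1) was 0.69, and only 14 of the 12222 genes tested, Mpp5 among them, had one as high or higher. These values chose the gene, and they are given as a description. With each library left out in turn, the log2 fold change of Mpp5 was 0.65 to 0.73.

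The annotation gives Mpp5 5 transcripts, of which 2 are protein-coding, 2 retain an intron and 1 is a target of nonsense-mediated decay. The data hold 1 value per gene, so which of these transcripts carried the difference was not analysed here. The longest has 5470 bases, and 0 of its 5421 stretches of 50 bases occurred in an annotated transcript of any other gene. Reverse complements, sequence outside annotated transcripts and the other 4 transcripts of Mpp5 were not searched.

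Among the other 8 measured members no gene passed the test, while 10 of the 12222 genes tested (0.0818%) did, 0.0245% higher and 0.0573% lower. Differences between groups were small: the members stood at 90.0% to 107.7% of their control level, with a median log2 fold change of -0.04, against 0.01 over all genes. By limma, a linear model fitted to every gene on log2(FPKM + 1), with Benjamini-Hochberg (BH) adjustment over all genes, the count past an adjusted p of 0.05 was 0, and the adjusted p ranged from 0.387 for Pard6b to 0.989 for Mpp6. At an unadjusted p under 0.05 there was 1 of 8, Pard6b, against 11.3% of all genes. That count was 0 without knockdown library 1, knockdown library 2 or control library 1, and 2 without knockdown library 3. Without control library 2 it was 1, and that gene was Lin7c. Without control library 3 it was also 1. Over all 12222 genes the count moved too, from 1036 without knockdown library 1 to 1657 without control library 2. Log2 fold changes were above 0 in 3 of the 8, against 53.0% of all genes. Groups did not overlap in 2 of the 8, against 18.4% of all genes, and in both the knockdown libraries were below (8.36% of all genes). A miss of the threshold does not show that the levels were equal: the 95% intervals of the 8 log2 fold changes, not adjusted for the number of genes, reached from -0.25 to 0.24 at their widest.

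**Figure D1:**
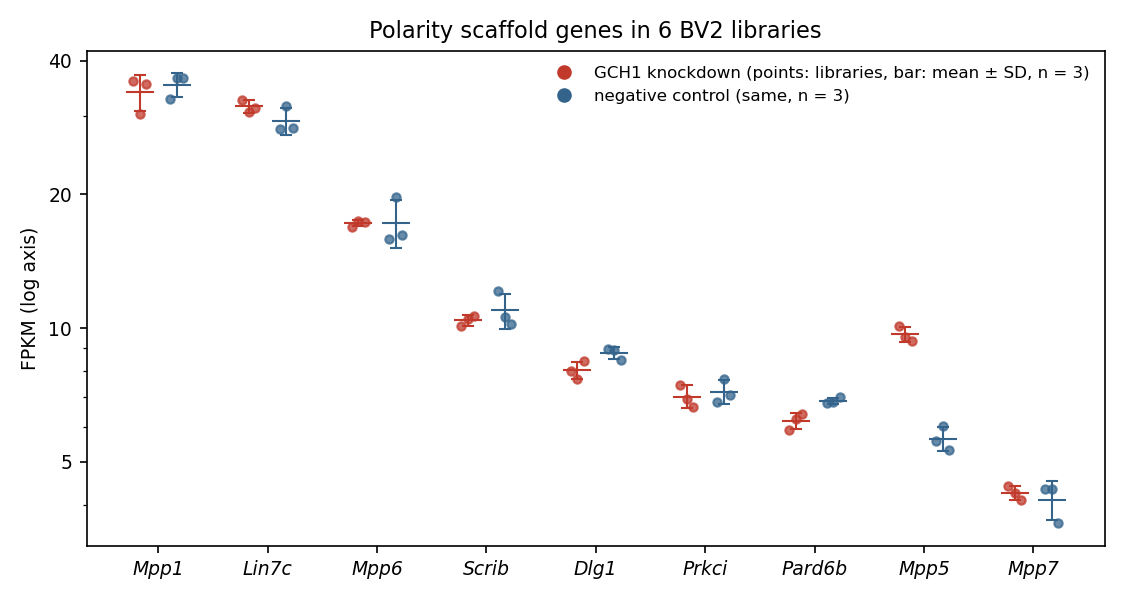
FPKM (log axis) of the 9 measured genes, ordered by their level in control cells. Points are libraries and bars are means ± SD, with knockdown left of control in each pair. Mpp5 lies between 9.37 and 10.1 FPKM in the knockdown libraries and between 5.32 and 6.02 FPKM in the control libraries, and Pard6b and Dlg1 are the other genes whose groups do not overlap.

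The closest relatives of Mpp5 in the set are the other palmitoylated membrane proteins of the MPP family. Mpp6 (PALS2), which like Mpp5 pairs with Lin7 proteins through L27 domains, was at 16.9, 17.4 and 17.4 FPKM in the knockdown libraries and 15.9, 19.7 and 16.2 FPKM in the control libraries. Control library 2 was above every other library, and the knockdown libraries lay inside the control range. The log2 fold change of Mpp6 was 0.00 (SE 0.08, 95% interval -0.18 to 0.19). Mpp7, which forms a complex with Dlg1 and Lin7 proteins, was at 4.41, 4.25 and 4.11 FPKM in the knockdown libraries and 4.35, 4.34 and 3.64 FPKM in the control libraries. Control library 3 was the lowest, and the groups overlapped (log2 fold change 0.04, SE 0.07, 95% interval -0.12 to 0.21). Mpp1 (p55), known from red blood cells as the link between protein 4.1 and glycophorin C, was at 36.0, 30.4 and 35.5 FPKM in the knockdown libraries and 32.8, 36.5 and 36.6 FPKM in the control libraries. Knockdown library 2 was the lowest of the 6 and the groups overlapped (log2 fold change -0.06, SE 0.08, 95% interval -0.23 to 0.12).

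Together with Mpp2 and Mpp3, which were measured but belong to the wider list below, 6 MPP genes were expressed. Their sum was 67.6 ± 2.95 FPKM in knockdown cells and 64.9 ± 3.84 FPKM in control cells (SD, n = 3 each). Mpp5 made up 14.5%, 14.9% and 13.6% of that sum in the knockdown libraries and 9.10%, 8.74% and 8.26% in the control libraries. Mpp1 gave the most in every library, at 50.2 ± 2.51% in knockdown cells and 54.4 ± 2.03% in control cells. The ratio of Mpp5 to Mpp6, the MPP gene with the next highest level after Mpp1, was 0.56 ± 0.03 in knockdown cells and 0.33 ± 0.02 in control cells. Mpp2 and Mpp3 together with Mpp7 stayed the 3 lowest of the family in all 6 libraries. These shares contain the Mpp5 values that chose the set, and they too are descriptive.

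**Figure D2:**
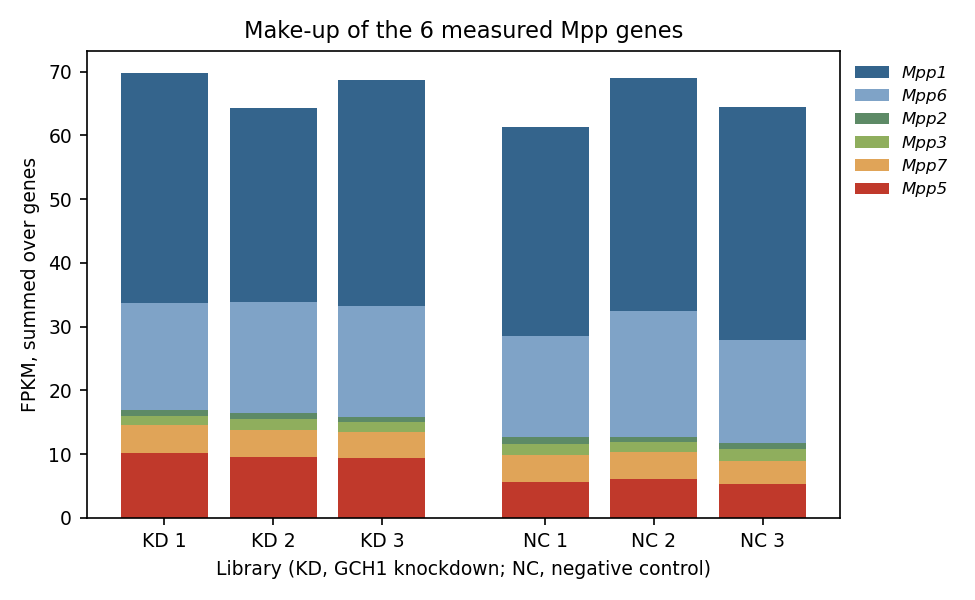
FPKM of the 6 measured MPP genes, stacked from 0, in each knockdown (KD) and negative control (NC) library. Mpp5, the lowest segment, takes 13.6% to 14.9% of the sum in knockdown libraries and 8.26% to 9.10% in control libraries, while Mpp1 and Mpp6 fill most of each bar.

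Lin7c, a small adaptor with an L27 and a PDZ domain that binds Mpp5, Mpp6 and Mpp7, was at 32.7, 30.7 and 31.3 FPKM in the knockdown libraries and 28.1, 31.6 and 28.2 FPKM in the control libraries. Control library 2 lay inside the knockdown range, so the groups overlapped. Its log2 fold change was 0.11 (SE 0.06, 95% interval -0.03 to 0.24, limma adjusted p = 0.517), the highest among the 8 genes. With each library left out in turn, the log2 fold change of Lin7c was 0.08 to 0.16, the highest without control library 2. The ratio of Mpp5 to Lin7c was 0.31 ± 0.01 in knockdown cells and 0.19 ± 0.01 in control cells (SD, n = 3 each). By this ratio Lin7c mRNA exceeded Mpp5 mRNA per length in both groups.

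The PAR module was represented by Pard6b and Prkci. Pard6b, an adaptor that couples CDC42 to atypical protein kinase C and also contacts Mpp5, was at 5.89, 6.25 and 6.40 FPKM in the knockdown libraries and 6.79, 6.81 and 6.99 FPKM in the control libraries. All 3 knockdown libraries lay below all 3 controls. The log2 fold change of Pard6b was -0.13 (SE 0.05, 95% interval -0.25 to -0.02, limma adjusted p = 0.387). Prkci, which encodes protein kinase C iota, the kinase of the module, was at 7.46, 6.94 and 6.63 FPKM in the knockdown libraries and 6.83, 7.68 and 7.07 FPKM in the control libraries. Its groups overlapped almost fully (log2 fold change -0.03, SE 0.06, 95% interval -0.18 to 0.11).

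The Scribble module was represented by Dlg1 and Scrib. Dlg1, the MAGUK also called SAP97, was at 8.01, 7.70 and 8.42 FPKM in the knockdown libraries and 8.98, 8.93 and 8.46 FPKM in the control libraries. The groups did not overlap, but the highest knockdown library and the lowest control library were almost level. The log2 fold change of Dlg1 was -0.11 (SE 0.05, 95% interval -0.23 to 0.01, limma adjusted p = 0.466). Scrib, a scaffold with leucine-rich repeats and PDZ domains, was at 10.1, 10.5 and 10.7 FPKM in the knockdown libraries and 12.1, 10.6 and 10.2 FPKM in the control libraries. Control library 1 stood above the other 5, which lay close together (log2 fold change -0.07, SE 0.07, 95% interval -0.22 to 0.09).

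**Figure D3:**
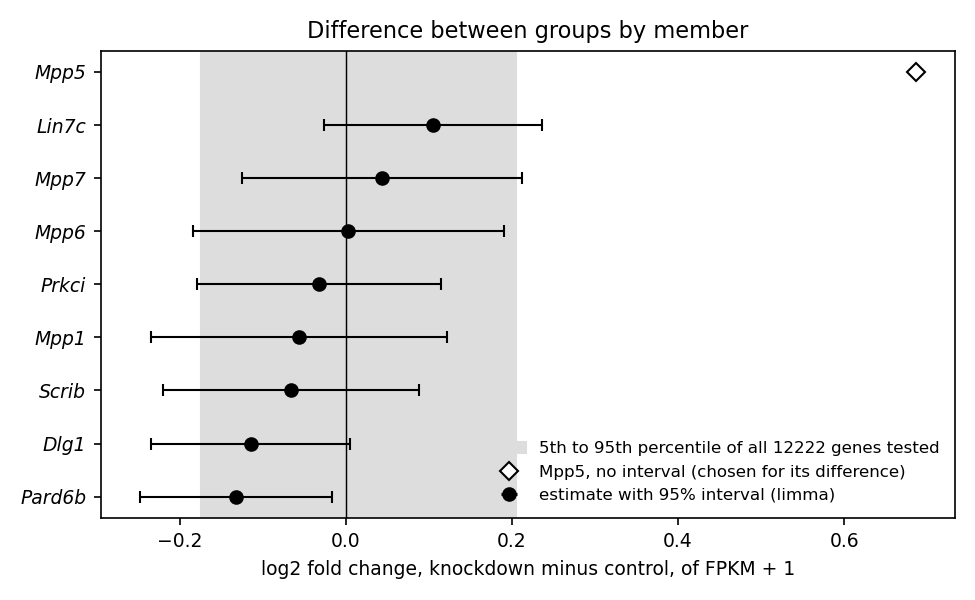
Log2 fold change (knockdown minus control, of FPKM + 1) for each measured gene, with 95% limma intervals for the 8 genes besides Mpp5. The grey band spans -0.17 to 0.20, the 5th to 95th percentile of all 12222 genes tested, and every estimate other than that of Mpp5 (0.69) lies inside it.

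Values also tilted with the GC content and length of transcripts to an extent that varied between libraries, in part with the groups. With that trend removed from each library, the log2 fold change of Mpp5 was 0.64. That of Lin7c, whose longest transcript has the lowest GC content of the 9 (37.3%), was 0.04, and that of Scrib, with the highest (61.2%), was -0.01. That of Mpp7 was 0.00, that of Mpp1 was -0.10, that of Prkci was -0.04 and that of Mpp6 was -0.0037. Those of Pard6b and Dlg1 were -0.10 and -0.12.

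Ordered by level, the 9 genes ran from Mpp1 and Lin7c at the top to Mpp7 at the bottom in both groups. In knockdown cells the order was Mpp1, Lin7c, Mpp6, Scrib, Mpp5, Dlg1, Prkci, Pard6b and Mpp7, and library ranges overlapped in 2 of the 8 neighbouring pairs, Mpp1 with Lin7c and Scrib with Mpp5. In control cells it was Mpp1, Lin7c, Mpp6, Scrib, Dlg1, Prkci, Pard6b, Mpp5 and Mpp7, and ranges overlapped in 1 pair, Prkci with Pard6b. Mpp5 was thus at rank 5 in knockdown cells and at rank 8 in control cells, while the other 8 genes kept their order among themselves. In knockdown cells Mpp5 was above Pard6b and Prkci, and in control cells it was below them, with a ratio of Mpp5 to Pard6b of 1.57 ± 0.13 in knockdown cells and 0.82 ± 0.06 in control cells (SD, n = 3 each). The ratio of Mpp5 to Prkci was 1.38 ± 0.03 in knockdown cells and 0.78 ± 0.03 in control cells. Across all 6 libraries the highest value of each of the 8 other genes was 1.16 to 1.24 times its lowest, against 1.90 times for Mpp5. The rank, ratios and spread of Mpp5 rest on the values that chose the set, so its contrast with the other 8 genes is descriptive.

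No gene tested near Mpp5 on chromosome 12 passed. Atp6v1d, a subunit of the vacuolar proton pump, lies on the minus strand and ends 11 bases beyond the end of Mpp5, so the genes face each other tail to tail. Atp6v1d was at 34.5, 32.7 and 33.7 FPKM in the knockdown libraries and 31.6, 35.2 and 31.9 FPKM in the control libraries. Its groups overlapped (log2 fold change 0.03, SE 0.05, limma adjusted p = 0.822). The library kit marks strand, but the strand setting of the counting is not given in the sources used here. Eif2s1, the alpha subunit of initiation factor eIF2, is the next gene on that side and had a log2 fold change of 0.01 (SE 0.04, limma adjusted p = 0.935). On the other side Gphn, which encodes the scaffold gephyrin, was at -0.03 (SE 0.05, limma adjusted p = 0.834), and the nearer gene Fam71d was not analysed here. The small nuclear RNA gene Gm25225, annotated within the bounds of Mpp5 on the other strand, was not analysed here either. Of the 14 other genes tested that lie within 1 Mb of Mpp5, 0 passed by limma, against 0.0818% of all genes. The predicted transcript Gm48225 was the only 1 at an unadjusted p under 0.05 (11.3% of all genes). The median log2 fold change was -0.01, and groups did not overlap in 2 (14.3%, against 18.4% of all genes). These 2 were Gm48225, with knockdown above, and Plekhh1, with knockdown below, and both were looked up after their values were seen.

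**Figure D4:**
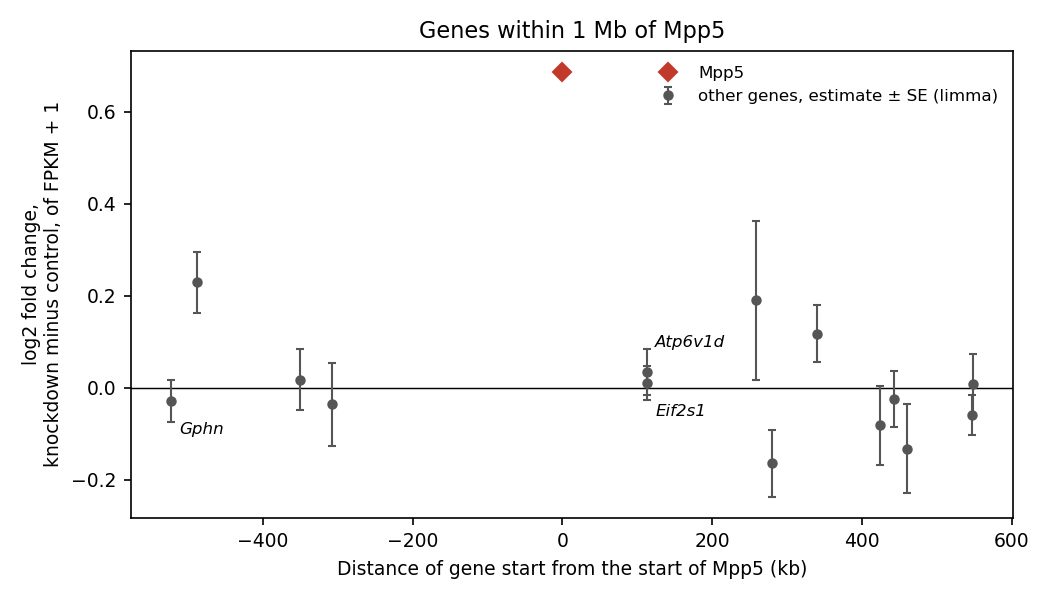
Log2 fold change (knockdown minus control, of FPKM + 1, ± SE) of the 14 genes tested within 1 Mb of Mpp5, against the distance of their start from that of Mpp5 in kb. They range from -0.16 to 0.23, all below Mpp5 at 0.69.

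The genes that work with these scaffolds were followed as 7 further lists, 95 genes in all, of which 52 were measured and 51 entered the test. By limma with BH adjustment over all genes, 0 of the 51 passed in either direction, against 10 of the 12222 genes tested (0.0818%). With so low a share, the counts of 0 in the lists below say little about their genes. At an unadjusted p under 0.05 there were 11 of the 51, a larger share than the 11.3% of all genes. That count was 6, 9 and 8 without knockdown library 1, 2 and 3, and 7, 10 and 6 without control library 1, 2 and 3. Over all 12222 genes the counts in the same fits were 1036, 1132, 1087, 1066, 1657 and 1134, against 1380 with every library. The median log2 fold change of the 51 was -0.02, with 19 above 0 and 32 below. Groups did not overlap in 14 of them (27.5%, against 18.4% of all genes), 5 with knockdown above (9.99% of all genes) and 9 with knockdown below (8.36%). The 5 were Rac1, Cdc42, Git2, Sav1 and Pard6a, of which Pard6a, a paralogue of Pard6b at 2.27, 2.33 and 2.46 FPKM in the knockdown libraries and 1.44, 2.24 and 2.23 FPKM in the control libraries, was named after its values were seen. The remaining 43 genes, among them the Crumbs receptor genes Crb1, Crb2 and Crb3 and the scaffold gene Patj, were not analysed here. Up to 3 genes per list, those with the smallest p, are named below, so separate groups in them follow in part from that choice. Groups did not overlap in 3 of 9 other MAGUK genes, 4 of 10 PAR genes and 2 of 7 Scribble partners. The counts were 2 of 10 for FERM proteins and linkers, 1 of 6 for junction genes and 2 of 8 for Hippo genes.

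Of the 10 genes in the list of Crumbs module partners, only Amotl1, of the angiomotin family of YAP-binding junction proteins, was measured. Lin7c and Pard6b, which also contact Mpp5, are members of the set and were not in this list. Amotl1 was at 18.9, 17.7 and 18.0 FPKM in the knockdown libraries and 19.1, 18.6 and 18.2 FPKM in the control libraries (log2 fold change -0.03, SE 0.04), with overlapping groups.

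Among the other MAGUK genes, 0 of 9 tested passed, 3 were above 0 and 6 below, and the median log2 fold change was -0.08. Magi1, an inverted MAGUK of junctions, averaged 3.32 ± 0.29 FPKM in knockdown cells and 4.02 ± 0.18 FPKM in control cells (SD, n = 3 each; log2 fold change -0.22, SE 0.07, limma adjusted p = 0.354). Each knockdown library of Magi1 lay below each control library, and the gene did not pass the test.

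In the wider PAR list, 0 of 10 genes passed, 6 were above 0 and 4 below, and the median log2 fold change was 0.03. Mark2, a kinase of the PAR-1 family that acts against the PAR3 complex, was at 6.43, 6.34 and 6.36 FPKM in the knockdown libraries and 7.39, 6.71 and 7.08 FPKM in the control libraries (log2 fold change -0.13, SE 0.05, limma adjusted p = 0.41). The small GTPase genes Rac1 and Cdc42 had knockdown libraries above all controls. Rac1 averaged 43.4 ± 1.23 FPKM in knockdown cells and 40.4 ± 1.56 FPKM in control cells (log2 fold change 0.10, SE 0.04, limma adjusted p = 0.439). Cdc42, whose product binds PAR6, averaged 83.2 ± 1.06 FPKM in knockdown cells and 78.8 ± 3.88 FPKM in control cells (log2 fold change 0.08, SE 0.04, limma adjusted p = 0.528). The log2 fold change of Cdc42 was 0.04 without control library 3, and also 0.04 with the GC and length trend removed, which left Mark2 at -0.08.

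Among partners of the Scribble module, 0 of 7 passed, 4 were above 0 and 3 below, and the median log2 fold change was 0.01. Git1, which with the exchange factor Arhgef7 (beta-PIX) binds Scrib, was at 23.9, 24.4 and 24.1 FPKM in the knockdown libraries and 26.2, 25.4 and 26.9 FPKM in the control libraries (log2 fold change -0.11, SE 0.04, limma adjusted p = 0.367). Its paralogue Git2 had the other sign (log2 fold change 0.08, SE 0.05, limma adjusted p = 0.553), and Arhgef7 was at 0.06 (SE 0.05, limma adjusted p = 0.666). Without the GC and length trend Git1 was at -0.06 and Arhgef7 at 0.09. With a library left out, Arhgef7 ranged from 0.02 (without control library 3) to 0.09 (without control library 1).

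Of the FERM proteins and membrane linkers, through which MPP proteins reach the actin skeleton, 0 of 10 passed, 2 were above 0 and 8 below, and the median log2 fold change was -0.07. Gypc, which encodes glycophorin C, the membrane partner of Mpp1, was at 6.81, 6.69 and 6.69 FPKM in the knockdown libraries and 7.37, 7.52 and 7.78 FPKM in the control libraries (log2 fold change -0.15, SE 0.04, limma adjusted p = 0.344). Ezr, the actin linker ezrin, averaged 27.7 ± 0.90 FPKM in knockdown cells and 31.1 ± 1.90 FPKM in control cells (log2 fold change -0.16, SE 0.05, limma adjusted p = 0.358). In both genes the knockdown libraries were below the controls without overlap. Epb41l1, of the protein 4.1 family, was at 9.37, 9.07 and 9.56 FPKM in the knockdown libraries and 12.6, 9.28 and 12.4 FPKM in the control libraries, where control library 2 lay among the knockdown values (log2 fold change -0.25, SE 0.11, limma adjusted p = 0.437). With a library left out, the log2 fold change of Epb41l1 ranged from -0.39 (without control library 2) to -0.19 (without control library 1). It was -0.20 with the GC and length trend removed.

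Of the junction adhesion genes, 0 of 6 passed, 1 was above 0 and 5 below, and the median log2 fold change was -0.03. Afdn (afadin), which ties nectins to actin, had the lowest p of the 51 genes. Afdn was at 11.1, 10.6 and 12.5 FPKM in the knockdown libraries and 14.5, 14.3 and 14.6 FPKM in the control libraries (log2 fold change -0.32, SE 0.06, limma adjusted p = 0.239). The groups did not overlap. Nectin2, a partner of afadin, stood at -0.04 on the log2 scale (SE 0.07, limma adjusted p = 0.855). The alpha-catenin gene Ctnna1 stood at -0.03 (SE 0.04, limma adjusted p = 0.77).

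In the Hippo pathway, which takes input from the Crumbs and Scribble modules, 0 of 8 passed, 3 were above 0 and 5 below, and the median log2 fold change was -0.05. Mob1a, the activator of the LATS kinases, was at 7.63, 11.3 and 7.40 FPKM in the knockdown libraries and 10.7, 31.8 and 27.6 FPKM in the control libraries. Its groups overlapped through control library 1, and its log2 fold change was -1.21 (SE 0.38, limma adjusted p = 0.349). With each library left out in turn, the log2 fold change of Mob1a was -1.67 to -0.93. The value of -1.67 was without control library 1 (SE 0.17, limma adjusted p = 0.0513). The kinase gene Stk3 was at -0.10 (SE 0.05, limma adjusted p = 0.486) and its adaptor Sav1 at 0.08 (SE 0.04, limma adjusted p = 0.496), each without overlap between groups. With the GC and length trend removed, Stk3 was at -0.16 and Sav1 at 0.03, and Stk3 was at -0.07 without knockdown library 2.

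**Figure D5:**
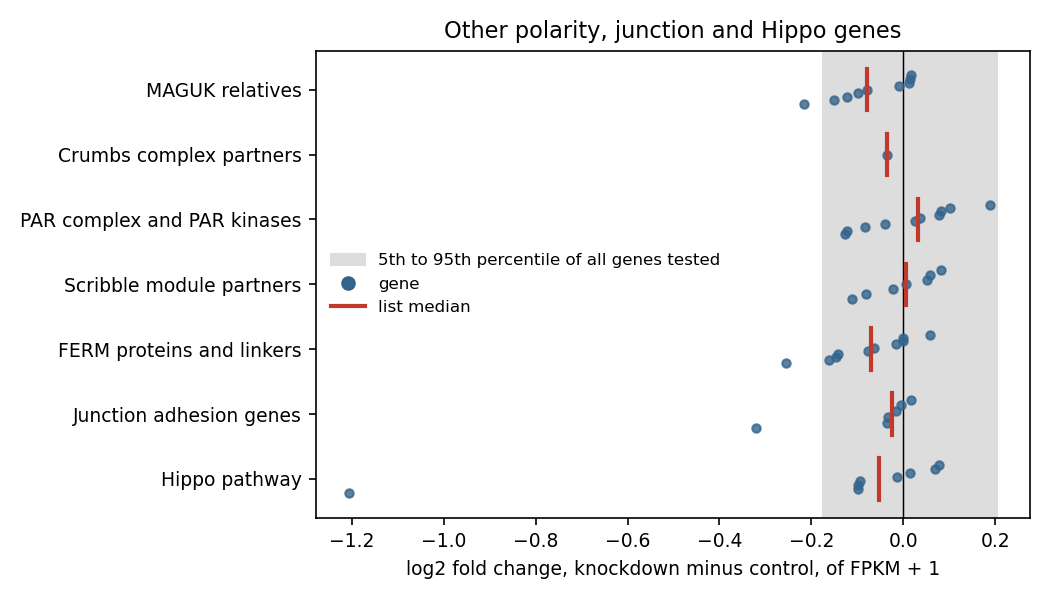
Log2 fold change (knockdown minus control, of FPKM + 1) of the 51 tested genes of 7 related lists. Points are genes, red bars are list medians (-0.08 to 0.03), and the grey band is the 5th to 95th percentile of all genes tested. Mob1a, at -1.21, lies farthest from 0.

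Likeness to Mpp5 was measured by Pearson's r over the 6 libraries on log2(FPKM + 1), among 11326 other genes whose higher group mean reached 1 FPKM. The points share the contrast between groups, so r largely reflects that contrast and is given as a description. The 5 genes most like Mpp5 were Rbm12b2 (r = 0.999), Gm30238 (0.998), Gm37238 (0.996), Sf3b3 (0.996) and Gm43336 (0.994), of which the 3 Gm genes are predicted transcripts with no known role. The 3 most opposite were Slc9a5 (-0.994), Ccnd1 (-0.991) and Tmem81 (-0.989). Rbm12b2, an RNA-binding protein gene, averaged 6.30 ± 0.07 FPKM in knockdown cells and 4.90 ± 0.15 FPKM in control cells, and none of these 8 genes passed by limma (BH adjusted p of 0.0718 for Ccnd1 to 0.358 for Sf3b3). Within the set, r with Mpp5 was highest for Lin7c (0.75) and lowest for Pard6b (-0.94), again over 6 libraries.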

How the data were processed

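Groups were taken from the genotype label and replicate numbers from the titles. The authors deposited a table of 1 number for each gene in each library. Its unit is not stated, and the deposited values look like FPKM, scaled by the authors for transcript length and library size. They sum to 224291 to 230292 per library, and in genes with a single annotated transcript the value times transcript length falls on multiples of a fixed step, taken as 1 aligned base, from which depth was estimated. Among the 400 lowest such genes, a share of 66.0% to 68.2% was whole to within 0.1 of a step (20% for random values at any given step). The step was the best of many tried within a preset range of depths, so the depth estimates hold only within that range. No counts were given, so no counting interval is printed. Per the labels' protocols, RNA was extracted with TRIzol, depleted with Ribo-Zero and made into stranded libraries. Per the submitters' processing notes, the tools were StringTie, HISAT2 and edgeR, with no versions, and the build was hg38, although the identifiers are mouse Ensembl genes. The lowest mean of the higher group was 0.501 FPKM, so weak genes were not analysed here.

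Symbols and coordinates came from GENCODE M21 (GRCm38) by identifier without version, which matched 12300 of 12327. The test was limma (version 3.58.1, R 4.3.3) with a mean-variance trend, over genes that reached 0.5 FPKM in 3 or more of the 6 libraries, on log2(FPKM + 1), with Benjamini-Hochberg adjustment and a threshold of 0.05. Fold changes are knockdown minus control, and the pseudocount shrinks those of low genes. The test was tried on simulated data. Members, lists, tests and alternatives were chosen with earlier results of these data known. Named genes are all measured members, Gch1, up to 3 genes per list with the smallest p, the neighbours of Mpp5, and the 5 most and 3 least like it. The values of some genes this rule names are not reported here. Python 3.11.15 with pandas 2.3.3 and numpy 2.4.6 was used for summaries. The alternatives were a replicate block, each library left out, other filters (a mean of 5 FPKM or none), quantile normalization, median-of-ratios scaling, a pseudocount of 0.1 or 0.5, no variance trend, and removal of a loess trend (span 0.3) on transcript GC content and length, also with the block.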

Additional observations from a re-analysis of the deposited data

How the results depend on the processing

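The count of 0 among the 8 members besides Mpp5, and of 0 among the 51 related genes, held in all 16 alternatives, some of which leave fewer genes or libraries. Over all genes 0 to 18 passed in these alternatives, so few that a count of 0 says little about the 8 or the 51. Of the 51, Mob1a came close to the threshold without control library 1 (limma adjusted p = 0.0513). The log2 fold change of Mpp5 was 0.64 to 0.77, the highest with a pseudocount of 0.1 (0.77), which shrinks it less. Its rank was 5 in knockdown cells and 8 in control cells with median-of-ratios scaling and with each library of the ranked group left out. Both use the values that chose the gene, so they describe it and are no further support for its rise. The members at an unadjusted p under 0.05 numbered 0 to 2. Over all genes, 6 to 18 passed with a library left out (6 without knockdown library 2 or 3, 18 without control library 2). In the replicate block 0 genes passed (1330 at an unadjusted p under 0.05), and 0 in the block with the GC and length trend removed (1365), with Gch1 at a limma adjusted p of 0.0604 and 0.0656. Same-numbered libraries deviated from their group means with correlations of 0.09, 0.06 and 0.09, each highest for its own number; the titles alone do not pair them. In 616 comparisons of named genes, Mpp5 not included, 21 turned direction. The replicate block, the other filters and the fit without a variance trend leave each log2 fold change unchanged, so these could not turn. Gch1 was the only one of these genes to pass the test. It did not turn, and at -0.96 its log2 fold change was far from 0. With a library left out, the ranges that crossed 0 were Mpp1 (-0.11 to 0.020), Mpp6 (-0.050 to 0.097), Mpp7 (-0.024 to 0.078), Prkci (-0.072 to 0.010), Scrib (-0.11 to 0.0011), Nectin2 (-0.071 to 0.020) and Eif2s1 (-0.0050 to 0.033). Mpp6 was at -0.0051 with median-of-ratios scaling. With the GC and length trend removed, with or without the replicate block, Mpp6 was at -0.0037, Amotl1 at 0.0031, Nectin2 at 0.0051 and Eif2s1 at -0.031. The cause of these turns was not tested. Values near 0.5 FPKM rest on few reads.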
